A study of Mus musculus with 9 samples.

Results

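The 46 genes described here encode the parts of the extracellular matrix that are not collagens, together with the enzymes that crosslink it. They were taken by name from a deposited table of read counts with 24062 rows, and all 46 were found and passed the filter on low counts. They fall into 6 classes by what their proteins do: 13 elastic fibre genes, 5 crosslinking enzymes, 8 matricellular proteins, 8 interstitial proteoglycans, 10 laminins and basement membrane proteins, and fibronectin with matrilin 2. The counts come from RNA-seq of mouse embryonic fibroblasts (MEFs, which are primary cells of connective tissue grown from embryos) of the C57BL/6 strain, all infected with lentivirus and harvested on day 4. The p21 group overexpressed p21, the cyclin-dependent kinase inhibitor encoded by Cdkn1a. The p16 group overexpressed p16, the inhibitor encoded by Cdkn2a. The control group received an empty vector. Each group held 3 libraries, and non-senescent is the status the labels give to every sample. The labels do not say whether replicates came from separate embryos or cultures, and if they did not, the p-values measure only the spread between these samples, which may be technical.

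Fibroblasts secrete most of the interstitial matrix. Fibronectin is laid down as a fibrillar network that cells grip through integrins. Fibrillin microfibrils carry elastin, small leucine-rich proteoglycans bind collagen fibrils, and laminins, nidogens and perlecan form basement membranes. Matricellular proteins such as thrombospondins, tenascins and SPARC bear less of the load and act on adhesion and signalling, and lysyl oxidases join collagen and elastin chains covalently. The comparisons ask how far each inhibitor shifts this set of transcripts in cells that the labels describe as non-senescent.

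The libraries held 44455730 to 63152239 counted reads. The delivered genes followed their labels: Cdkn1a had 1773, 1429 and 1612 CPM (reads of a gene scaled to a common library total) in p21 libraries, 371, 379 and 367 CPM in p16 libraries and 350, 375 and 356 CPM in empty vector libraries. Cdkn2a had 48.1, 47.4 and 44 CPM in p21 libraries, 1927, 1576 and 1691 CPM in p16 libraries and 36.9, 42.2 and 34.7 CPM in empty vector libraries. It was thus also called slightly higher with p21 than with the empty vector (log2 fold change 0.29 ± 0.08, edgeR adjusted p = 0.0111). The replicate 3 library of every group stood apart from replicates 1 and 2. It separated on the second principal component, which held 18.9% of the variance, and it carried Xist, the X-inactivation transcript, at 181 to 251 CPM, against at most 6.96 CPM in the other libraries. Results are therefore also given from replicates 1 and 2 alone. The 10 fibroblast markers were all tested, and 4 rose (Col1a1, Thy1, Vim and S100a4) and 4 fell (Col3a1, Pdgfra, Prrx1 and Twist1) with p21. That is 80% of the list, against 39.9% of all genes tested. Their log2 fold changes were -0.99 (Pdgfra) to 0.41 (S100a4), and none passed with p16 without the block. Col1a1 was at 12411 to 15891 CPM and Vim at 4898 to 5419 CPM, whereas the matrix genes Dcn and Lum, both typical of adult fibroblasts, lay at most at 4.12 and 1 CPM. Some markers of other cells also moved with the groups, while none of the 5 tested endothelial markers passed in any comparison without the block. The 9 skeletal muscle markers summed to 370 to 432 CPM in p21 libraries, 187 to 203 CPM in p16 libraries and 125 to 140 CPM in empty vector libraries. Nearly all of this was the actin gene Acta1, which rose with both, as did Chrna1, while Myog and Myod1 averaged at most 0.0239 and 0.0351 CPM in a group and Ckm and Myh8 were at 0. The 8 epithelial markers summed to 69.2 to 84.9 CPM in p21 libraries, 67.2 to 81.9 CPM in p16 libraries and 59.0 to 76.2 CPM in empty vector libraries, and Krt18 and Cldn4 rose with p21, while Epcam and Cdh1 averaged at most 0.0846 and 0.0895 CPM in a group. The 16 leukocyte markers summed to 45.3 to 63.9 CPM in p21 libraries, 34.7 to 64.3 CPM in p16 libraries and 25.8 to 42.7 CPM in empty vector libraries. With p21, 6 of them rose and none fell, or 37.5%, near the 39.9% of all genes tested. None passed with p16 or in p21 against p16 without the block. The leukocyte marker Ptprc lay between 0.257 and 0.909 CPM. The 8 cartilage markers, of which Matn1 and Lect1 were at 0 counts, summed to 339 to 596 CPM in p21 libraries, 370 to 709 CPM in p16 libraries and 416 to 834 CPM in empty vector libraries. Most of this was Col2a1, which passed no comparison without the block. Acan fell with both p21 and p16 (log2 fold change -0.93 and -0.95), and Sox9 with p21. The part of these cells in the results was not tested, and in bulk RNA fewer cells of a type and less RNA per cell cannot be told apart.

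With p21, 19 of the 46 genes rose and 9 fell against the empty vector at an adjusted p under 0.05 in edgeR's quasi-likelihood test, and 18 did not pass. That is 60.9% of the set, while 39.9% of the 14223 genes tested passed, 19.8% in the upward and 20.1% in the downward direction. The shares over all genes tested, here and below, were not matched to the levels of the set, which holds some very abundant transcripts. For 25 of the 46 genes no p21 library overlapped the empty vector range, against 49.1% of all genes tested. The median log2 fold change was 0.17 over the set and 0.001 over all genes tested. Among the genes that rose were fibronectin, nidogen 1, laminin β1, SPARC, tenascin C, thrombospondin 1 and the crosslinking enzymes Loxl2 and Loxl4. Those that fell included fibrillin 2, fibulin 1, versican and TGFBI. Every one of the 28 called genes differed in the called direction in all 3 pairs of libraries with the same replicate number. These are the libraries that made the calls, so this is no separate evidence for them. Genes that were not called, such as Fbln5 and Postn, also differed in the same direction in all 3 pairs. With the replicate number as a block, 25 rose and 14 fell. Replicates 1 and 2 alone gave 36 called genes, including all 28. With libraries scaled by their totals only, 15 rose and 9 fell, and over all genes tested the split was 2173 higher and 3734 lower, against 2816 higher and 2865 lower with TMM scaling.

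With p16, 12 of the 46 genes rose and 3 fell against the same empty vector libraries, 32.6% of the set, while 11.4% of all genes tested passed, 5.8% upward and 5.56% downward. The groups did not overlap for 17 of the 46, against 32.7% of all genes. The median log2 fold change was 0.07 over the set and 0.002 over all genes. All 15 called genes were also called with p21 and in the same direction, but the comparisons share their control libraries. With the replicate block 20 rose and 7 fell, and replicates 1 and 2 alone gave 21 called genes, including all 15. The number that rose depended on the control libraries: without empty vector replicate 1, 7 genes rose. With library totals only, 8 rose and 3 fell, and over all genes 617 rose and 1235 fell, against 825 and 791 with TMM scaling.

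Set against each other directly, p21 libraries exceeded p16 libraries for 5 genes (Fn1, Lamb1, Nid1, Tnc and Prelp) and lay below them for 4 (Fbn2, Fbln1, Vcan and Thbs3). That is 19.6% of the set, while 13.1% of all genes passed, 6.15% upward and 6.91% downward. The groups did not overlap for 16 of the 46, against 31.2% of all genes. The median log2 fold change was 0.03 over the set and -0.002 over all genes. This count moved most with the treatment of the replicates: 16 genes were higher and 13 lower with the replicate block, and replicates 1 and 2 alone called 20, including 8 of the 9. The block also raised the number of calls over all genes tested, as given with the other settings at the end. Without p16 replicate 2 the number of the 46 that were higher was 1, and without p16 replicate 1 it was 2.

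**Figure D1:**
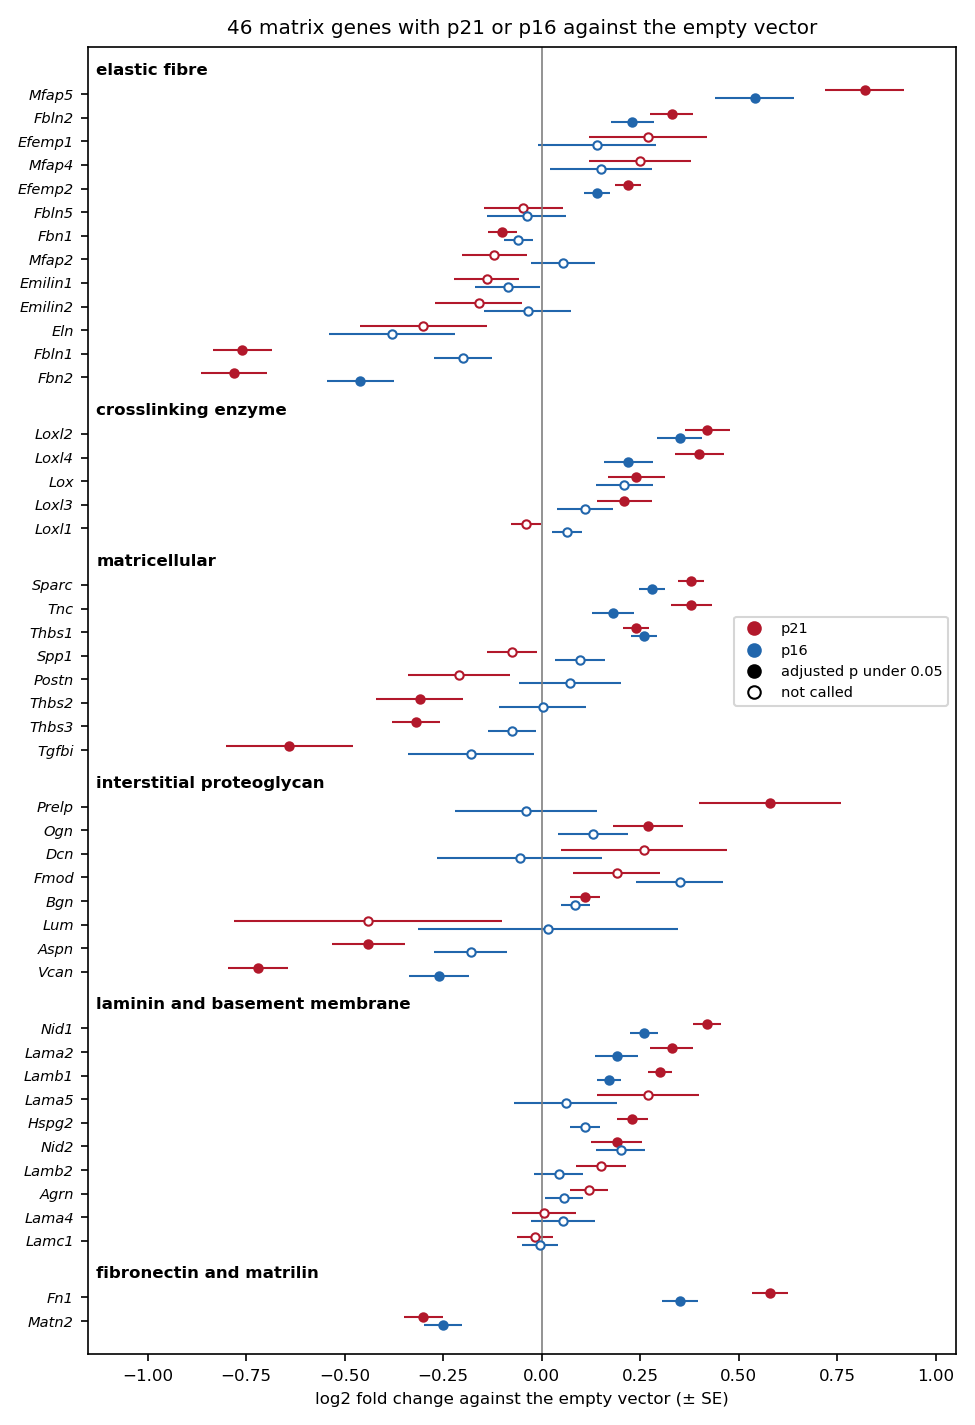
Log2 fold change of each of the 46 matrix genes with p21 (red) and p16 (blue) against the empty vector, by class; points are fitted values, bars their standard errors, and filled points passed an adjusted p of 0.05 in edgeR. No laminin, basement membrane or crosslinking gene fell, while the elastic fibre, matricellular and proteoglycan classes hold both rises and falls.

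Fibronectin (Fn1; chr1:71585520-71653200, minus strand, GRCm38) is the glycoprotein network that cells assemble on integrins. Its level was 15532, 15915 and 14770 CPM in p21 libraries and 12659, 13289 and 13428 CPM in p16 libraries, against 9886, 10204 and 10909 CPM in empty vector libraries. Every p21 library lay above every p16 library, and every p16 library above every empty vector library. The log2 fold change (± SE) was 0.58 ± 0.046 with p21 and 0.35 ± 0.046 with p16 (edgeR adjusted p = 1.44e-06 and 0.000861), and p21 exceeded p16 by 0.23 ± 0.046 (edgeR adjusted p = 0.00604). Matrilin 2 (Matn2), an adaptor that links other matrix filaments, went the other way. It had 32.9, 33.1 and 34.9 CPM in p21 libraries and 33.6, 35.9 and 34.5 CPM in p16 libraries, against 43.7, 39.7 and 40.8 CPM in empty vector libraries. The p21 and p16 libraries overlapped each other and all lay below the empty vector. On the log2 scale the change was -0.30 ± 0.049 with p21 and -0.25 ± 0.049 with p16 (edgeR adjusted p = 0.000414 and 0.00606), and the difference between p21 and p16 was -0.04 ± 0.049 (edgeR adjusted p = 0.628).

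The 10 laminin and basement membrane genes moved upward where they moved. With p21, 5 rose and none fell (median log2 fold change 0.21), with p16, 3 rose and none fell (median 0.08), and in p21 against p16, 2 were higher and none lower (median 0.12). These are 50%, 30% and 20% of the class, against 39.9%, 11.4% and 13.1% of all genes tested. Without p21 replicate 2 the median was 0.112 with p21 and 0.041 in p21 against p16. With the block, 8 rose with p21 and 5 with p16, and 5 were higher in p21 against p16, with none lower in any of these. Nidogen 1 (Nid1; chr13:13437551-13512269, plus strand), which bridges laminin and collagen IV networks, had 1647, 1618 and 1635 CPM in p21 libraries and 1425, 1435 and 1533 CPM in p16 libraries, against 1203, 1197 and 1267 CPM in empty vector libraries. The 3 groups did not overlap. It changed on the log2 scale by 0.42 ± 0.036 with p21 and 0.26 ± 0.036 with p16 (edgeR adjusted p = 2.74e-06 and 0.00103), and p21 exceeded p16 by 0.16 ± 0.036 (edgeR adjusted p = 0.0134). Laminin β1 (Lamb1; chr12:31265234-31329644, plus strand), a chain of most embryonic laminins, had 671, 682 and 672 CPM in p21 libraries and 605, 617 and 629 CPM in p16 libraries, against 550, 532 and 558 CPM in empty vector libraries. These groups were also fully separate. Its log2 fold change was 0.30 ± 0.030 with p21 and 0.17 ± 0.030 with p16 (edgeR adjusted p = 7.6e-06 and 0.00339), and p21 exceeded p16 by 0.13 ± 0.030 (edgeR adjusted p = 0.0135). In p21 against p16 both calls were lost without p16 replicate 1 or p16 replicate 2, with an adjusted p of at most 0.058 for Nid1 and 0.0614 for Lamb1.

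Laminin α2 (Lama2), the chain of muscle and mesenchymal laminins, had 65.7, 67.4 and 60.6 CPM in p21 libraries and 62.1, 58.3 and 56.1 CPM in p16 libraries, against 53.7, 49.7 and 50.8 CPM in empty vector libraries. Both sets of libraries lay above the empty vector and overlapped each other. The fitted log2 fold change was 0.33 ± 0.055 with p21 and 0.19 ± 0.055 with p16 (edgeR adjusted p = 0.000466 and 0.039). The p16 call was lost without any 1 of empty vector replicates 1, 2 or 3, p21 replicate 1, p16 replicate 1 or p16 replicate 2 (adjusted p of at most 0.15), and with library totals only (0.0734). Perlecan (Hspg2), the large heparan sulfate proteoglycan of basement membranes, had 1786, 1782 and 1736 CPM in p21 libraries and 1666, 1541 and 1663 CPM in p16 libraries, against 1482, 1472 and 1571 CPM in empty vector libraries. All p21 libraries lay above all others, while p16 replicate 2 lay below the highest empty vector library. Perlecan rose by 0.23 ± 0.039 on the log2 scale with p21 (edgeR adjusted p = 0.000516). Its adjusted p in edgeR was 0.0994 with p16 and 0.0542 in p21 against p16, and 0.0137 and 0.00389 with the replicate block.

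Nidogen 2 (Nid2) averaged 167 ± 17.8 CPM in p21 libraries, 169 ± 2.64 in p16 libraries and 146 ± 7.34 in empty vector libraries (SD, n = 3 each). It rose by 0.19 ± 0.064 with p21 (edgeR adjusted p = 0.0278), a call lost without empty vector replicate 1 or 3 or p21 replicate 1 or 2 (at most 0.122) and with library totals only (0.0931). With p16 its log2 fold change was 0.20 ± 0.063 (edgeR adjusted p = 0.0579; 0.00126 with the block). The 5 genes that passed no comparison were the laminin chains Lama4, Lama5, Lamb2 and Lamc1 and the heparan sulfate proteoglycan agrin (Agrn), with log2 fold changes with p21 of -0.02 to 0.27. Lamc1, the γ1 chain that most laminins share, was at 325 ± 23.1 CPM with p21, 328 ± 7.79 with p16 and 329 ± 8.63 with the empty vector. Lama5, Lamb2 and Agrn passed with p21 under the block (edgeR adjusted p = 8.7e-05, 0.0114 and 0.0193).

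Promoters are shown for Nid1 and versican (Vcan) because they are the rising and the falling gene with the smallest adjusted p with p21 among those with 1 start site in RefSeq that could be printed here. Each sequence is the 250 bases before the start on GRCm38.p6, written 5′ to 3′ on the strand of the gene, with matches to the searched motifs in capitals. Nid1 is chr13:13437352-13437601 on the plus strand and Vcan is chr13:89742513-89742762 on the minus strand.

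Nid1: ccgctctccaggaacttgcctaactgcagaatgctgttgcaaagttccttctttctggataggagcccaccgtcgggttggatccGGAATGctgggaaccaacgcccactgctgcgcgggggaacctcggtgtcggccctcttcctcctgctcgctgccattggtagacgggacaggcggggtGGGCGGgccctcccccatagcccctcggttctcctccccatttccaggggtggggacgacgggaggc

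Vcan: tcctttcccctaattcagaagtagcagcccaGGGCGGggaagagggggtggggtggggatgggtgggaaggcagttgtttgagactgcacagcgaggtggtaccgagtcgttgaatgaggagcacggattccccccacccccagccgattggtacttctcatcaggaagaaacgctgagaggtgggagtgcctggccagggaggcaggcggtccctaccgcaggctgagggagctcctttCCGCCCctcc

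The Nid1 window (64.4% G and C) held 1 GC box, GGGCGG, and 1 TEAD motif, GGAATG. The Vcan window (62.4%) held 2 GC boxes, 1 of them on the opposite strand and so printed as CCGCCC. RefSeq gave 40 promoters for 30 of the 46 genes, and on either strand 23 of the 40 held the GC box, against 32.7% of 32851 promoters. The TATA box TATAAA was in 7 of the 40 (12.4% of all promoters), the AP-1 motif TGANTCA in 1 (6.75%) and the TEAD motif in 4 (12.6%). Of the 15 promoters of genes that rose with p21, 11 held the GC box, and of the 8 of genes that fell, 5 did. Genes with several start sites are counted more than once, and the 32851 promoters were not matched to the set in level or in G and C content. These are matches of letters, and no factor was measured at these windows.

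The 5 crosslinking enzymes of the lysyl oxidase family rose in part. With p21, 4 rose and none fell (median log2 fold change 0.24), with p16, 2 rose and none fell (median 0.21), and none passed in p21 against p16 (median 0.07). These are 80% and 40% of the class with p21 and p16, against 39.9% and 11.4% of all genes tested. The median in p21 against p16 was 0.02 without p21 replicate 3 and 0.03 without p16 replicate 1. With the block, 4 rose with p16. In that direct comparison edgeR's unadjusted p was under 0.05 for 2 (Loxl1 and Loxl4), limma-voom called 0, DESeq2 called 1 and edgeR with the replicate block called 3. Loxl2 (chr14:69609068-69695834, plus strand), which acts on collagen IV among other substrates, had 1509, 1481 and 1655 CPM in p21 libraries and 1392, 1476 and 1554 CPM in p16 libraries, against 1121, 1093 and 1247 CPM in empty vector libraries. Libraries of p21 and p16 overlapped each other and all lay above the empty vector. This gave a log2 fold change of 0.42 ± 0.057 with p21 and 0.35 ± 0.057 with p16 (edgeR adjusted p = 0.0001 and 0.00264), and 0.07 ± 0.057 in p21 against p16 (edgeR adjusted p = 0.471). Loxl4 had 202, 201 and 172 CPM in p21 libraries and 172, 177 and 161 CPM in p16 libraries, against 143, 155 and 138 CPM in empty vector libraries. It too was above the empty vector in every p21 and p16 library. Its log2 fold change was 0.40 ± 0.063 with p21 and 0.22 ± 0.063 with p16 (edgeR adjusted p = 0.000342 and 0.0401). The p16 call was lost without empty vector replicate 1 or 3 or p16 replicate 1 or 2 (at most 0.157) and with library totals only (0.0691), and p21 against p16 gave 0.17 ± 0.063 (edgeR adjusted p = 0.091; 0.000957 with the block).

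Lox, the founding member of the family and the one with the highest level per kb of exon here, had 2265, 2134 and 2526 CPM in p21 libraries and 2110, 2236 and 2442 CPM in p16 libraries, against 1846, 1874 and 2149 CPM in empty vector libraries. The groups overlapped through the high replicate 3 libraries, yet within each replicate number both p21 and p16 were above the empty vector. Lox rose by 0.24 ± 0.072 with p21 (edgeR adjusted p = 0.0196), a call lost without empty vector replicate 1 or 2 or p21 replicate 3 (at most 0.0813), and with p16 the value was 0.21 ± 0.072 (edgeR adjusted p = 0.0841; 1.09e-05 with the block). Loxl3 had 490, 500 and 416 CPM in p21 libraries and 462, 435 and 408 CPM in p16 libraries, against 417, 424 and 372 CPM in empty vector libraries. Its replicate 3 libraries were the low ones in each group, and the groups overlapped. It rose by 0.21 ± 0.070 with p21 (edgeR adjusted p = 0.028), which was lost without empty vector replicate 3 or p21 replicate 1 or 2 (at most 0.112) and with library totals only (0.0822), and 11.6% of its exons lie opposite another gene, Htra2. With p16 its log2 fold change was 0.11 ± 0.070 (edgeR adjusted p = 0.372; 0.0196 with the block). Loxl1, which is tied to elastin, had 603, 579 and 549 CPM in p21 libraries and 612, 610 and 639 CPM in p16 libraries, against 579, 611 and 588 CPM in empty vector libraries. It passed neither comparison with the empty vector (log2 fold change -0.04 with p21 and 0.06 with p16), and all p21 libraries lay below all p16 libraries (-0.10 ± 0.038, edgeR adjusted p = 0.0989; 0.0299 with the block).

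**Figure D2:**
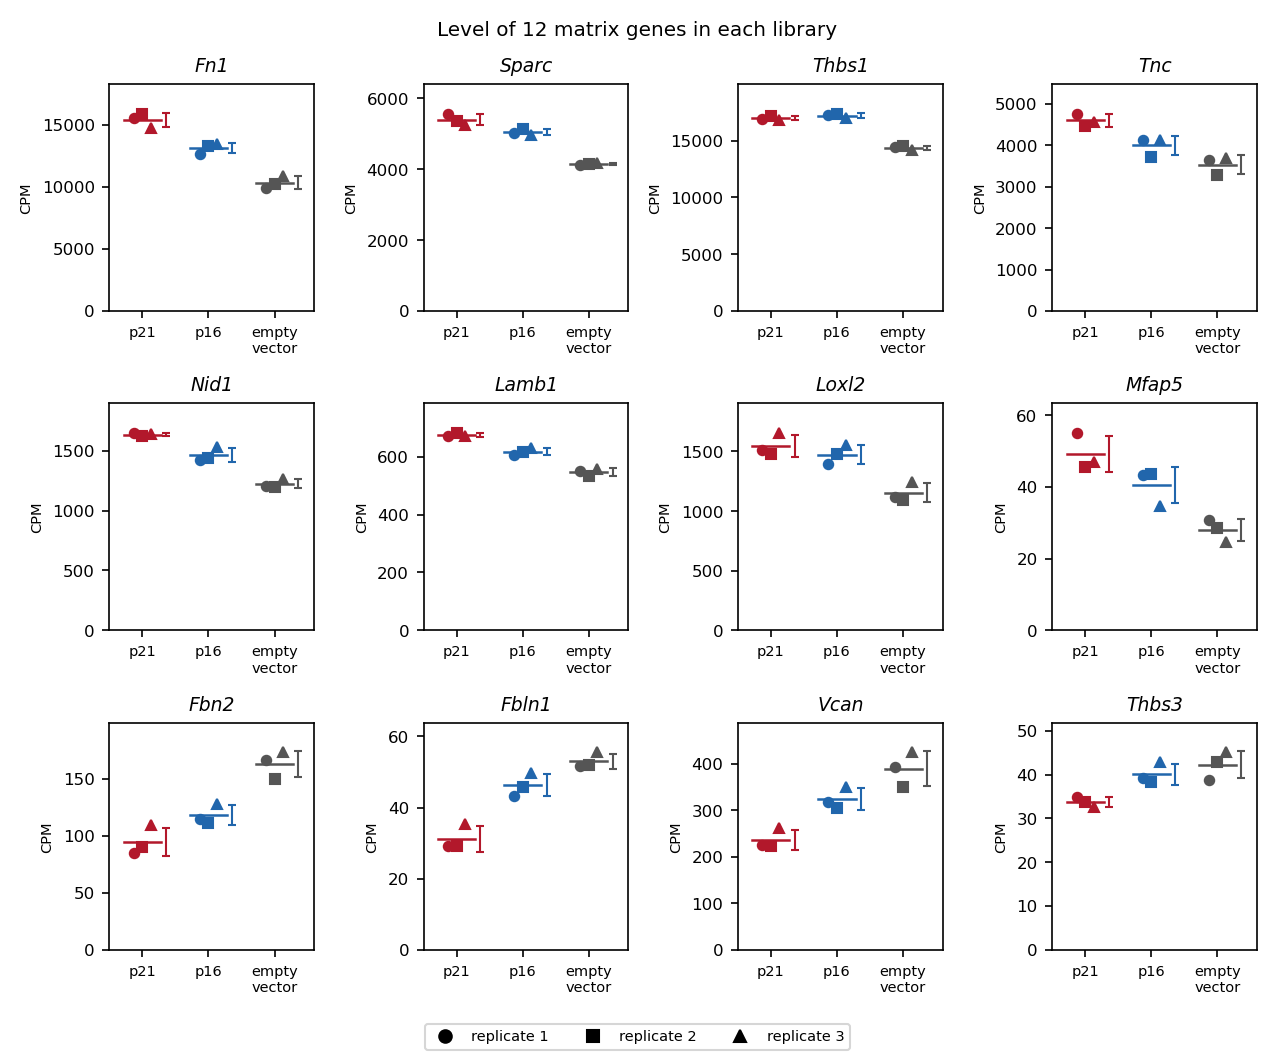
CPM of 12 matrix genes in each library by group (p21, p16, empty vector); symbols give the replicate number, horizontal lines the mean and bars the SD (n = 3). Fn1, Sparc, Nid1, Lamb1, Mfap5 and Tnc are highest with p21 and lowest with the empty vector, Fbn2, Fbln1 and Vcan the reverse, and for Thbs1 and Loxl2 the p21 and p16 libraries overlap.

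The 8 matricellular genes divided. With p21, 3 rose and 3 fell (median log2 fold change -0.15), with p16, 3 rose and none fell (median 0.08), and in p21 against p16, 1 was higher and 1 lower (median -0.21). These are 75.0%, 37.5% and 25% of the class, against 39.9%, 11.4% and 13.1% of all genes tested. The p21 median was -0.08 without p21 replicate 2 or empty vector replicate 3. The p16 median was 0.04 without empty vector replicate 2 or p16 replicate 3, and 0.148 without empty vector replicate 3. The block gave 2 higher and 5 lower in the last of these. SPARC (Sparc; chr11:55394500-55423183, minus strand), a collagen-binding protein, had 5571, 5371 and 5257 CPM in p21 libraries and 5037, 5132 and 4979 CPM in p16 libraries, against 4119, 4155 and 4185 CPM in empty vector libraries. The 3 groups did not overlap. The fit put the log2 fold change at 0.38 ± 0.033 with p21 and 0.28 ± 0.033 with p16 (edgeR adjusted p = 2.94e-06 and 0.000468), and 0.10 ± 0.033 in p21 against p16 (edgeR adjusted p = 0.0742; 0.00675 with the block). Thrombospondin 1 (Thbs1; chr2:118111876-118127133, plus strand), which activates latent TGF-β and limits vessel growth, had 16919, 17184 and 16795 CPM in p21 libraries and 17219, 17374 and 16964 CPM in p16 libraries, against 14408, 14479 and 14192 CPM in empty vector libraries. Its p21 and p16 libraries overlapped and all lay above the empty vector. The log2 fold change was 0.24 ± 0.033 with p21 and 0.26 ± 0.033 with p16 (edgeR adjusted p = 0.000123 and 0.000718). Tenascin C (Tnc; chr4:63959785-64047015, minus strand), an anti-adhesive protein of wounds and embryonic tissue, had 4766, 4473 and 4569 CPM in p21 libraries and 4131, 3728 and 4137 CPM in p16 libraries, against 3640, 3272 and 3687 CPM in empty vector libraries. All 3 groups were separate, with replicate 2 the lowest in each. On the log2 scale the change was 0.38 ± 0.053 with p21 and 0.18 ± 0.053 with p16 (edgeR adjusted p = 0.000123 and 0.0481), and p21 exceeded p16 by 0.20 ± 0.053 (edgeR adjusted p = 0.0256). The p16 call was lost without any 1 of empty vector replicates 1, 2 or 3, p21 replicate 1 or 3, or p16 replicate 1 or 3 (at most 0.164) and with library totals only (0.0813), and the direct call without p21 replicate 1 or p16 replicate 2 (at most 0.0946).

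Thrombospondin 3 (Thbs3), a member of the pentameric thrombospondins, was lower with p21. It had 35.0, 33.8 and 32.6 CPM in p21 libraries and 39.3, 38.3 and 42.8 CPM in p16 libraries, against 38.9, 42.8 and 45.1 CPM in empty vector libraries. Every p21 library lay below the others, and p16 overlapped the empty vector. It changed on the log2 scale by -0.32 ± 0.061 with p21 (edgeR adjusted p = 0.00116), -0.08 ± 0.060 with p16 (edgeR adjusted p = 0.478) and -0.25 ± 0.061 in p21 against p16 (edgeR adjusted p = 0.0195). The last call was lost without p21 replicate 3 or p16 replicate 3 (at most 0.0814) and with replicates 1 and 2 alone (0.0724). TGFBI (Tgfbi), an integrin-binding protein induced by TGF-β, averaged 49.4 ± 10.8 CPM in p21 libraries, 67.8 ± 13.8 in p16 libraries and 77.0 ± 13.2 in empty vector libraries (SD, n = 3 each). Its replicate 3 library was the highest of each group. It fell by 0.64 ± 0.16 on the log2 scale with p21 (edgeR adjusted p = 0.00851). With the block it also passed with p16 (0.00248) and in p21 against p16 (3.93e-08), where edgeR's adjusted p without the block was 0.532 and 0.0921. Thrombospondin 2 (Thbs2) averaged 544 ± 66.1 CPM with p21, 677 ± 95.4 with p16 and 676 ± 85.6 with the empty vector. It fell by 0.31 ± 0.11 on the log2 scale with p21 (edgeR adjusted p = 0.0388), a call lost in DESeq2 (0.0937) and without empty vector replicate 1 or 3 or p21 replicate 1 or 2 (at most 0.148). In p21 against p16 its adjusted p in edgeR was 0.081, and 3.33e-08 with the block. Periostin (Postn), a collagen-binding protein, and osteopontin (Spp1), a secreted phosphoprotein, passed no comparison. With the block, Postn passed with p21 at -0.21 (7.35e-06), and both passed in p21 against p16, Postn at -0.29 (4.82e-07) and Spp1 at -0.17 (0.00598).

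The 13 elastic fibre genes also went both ways. With p21, 3 rose and 3 fell (median log2 fold change -0.10), with p16, 3 rose and 1 fell (median -0.04), and in p21 against p16 none was higher and 2 were lower (median -0.01). These are 46.2%, 30.8% and 15.4% of the class, against 39.9%, 11.4% and 13.1% of all genes tested. Without empty vector replicate 3 the p21 median was -0.026, and with p16 and in p21 against p16 the sign of the median depended on the library left out. With the block the class had 12 calls with p21, 7 with p16 and 8 in p21 against p16. Mfap5 (chr6:122505845-122529290, plus strand), a microfibril-associated glycoprotein, had 55.0, 45.5 and 47.0 CPM in p21 libraries and 43.2, 43.6 and 34.6 CPM in p16 libraries, against 30.7, 28.4 and 24.6 CPM in empty vector libraries. The groups were separate. Its log2 fold change, the highest of the 46 genes in both comparisons with the empty vector, was 0.82 ± 0.10 with p21 and 0.54 ± 0.10 with p16 (edgeR adjusted p = 5.19e-05 and 0.00578), and 0.28 ± 0.10 in p21 against p16 (edgeR adjusted p = 0.0867; 0.000486 with the block). Efemp2 (fibulin 4), which helps lysyl oxidase reach elastin, had 394, 384 and 390 CPM in p21 libraries and 354, 371 and 373 CPM in p16 libraries, against 321, 335 and 343 CPM in empty vector libraries. Again no group overlapped another. The fitted log2 fold change was 0.22 ± 0.033 with p21 and 0.14 ± 0.033 with p16 (edgeR adjusted p = 0.000205 and 0.0221), the p16 call being lost without empty vector replicate 1 or 2 or p16 replicate 2 or 3 (at most 0.0992) and with library totals only (0.0536). Fibulin 2 (Fbln2), a cross-bridging glycoprotein, averaged 4530 ± 93.2 CPM with p21, 4219 ± 299 with p16 and 3594 ± 228 with the empty vector. It rose by 0.33 ± 0.054 with p21 and by 0.23 ± 0.054 with p16 (edgeR adjusted p = 0.000381 and 0.0174), and the p16 call was lost without empty vector replicate 1 or 2 or p16 replicate 3 (at most 0.0722).

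Fibrillin 2 (Fbn2; chr18:58008623-58210487, minus strand), the fibrillin of embryonic microfibrils, had 85.2, 90.3 and 109 CPM in p21 libraries and 115, 111 and 128 CPM in p16 libraries, against 166, 150 and 173 CPM in empty vector libraries. The 3 groups did not overlap. This gave a log2 fold change of -0.78 ± 0.084 with p21 and -0.46 ± 0.084 with p16 (edgeR adjusted p = 1.6e-05 and 0.00459), and -0.32 ± 0.084 in p21 against p16 (edgeR adjusted p = 0.0263). The direct call was lost without p21 replicate 1 or 2 or p16 replicate 1 or 3 (at most 0.109). Fibulin 1 (Fbln1; chr15:85205949-85286535, plus strand), which binds fibronectin and elastic fibres, had 29.1, 29.1 and 35.3 CPM in p21 libraries and 43.3, 45.9 and 49.6 CPM in p16 libraries, against 51.6, 52.0 and 55.5 CPM in empty vector libraries. Here too the groups were separate. The fit put the log2 fold change at -0.76 ± 0.075 with p21 (edgeR adjusted p = 7.78e-06), -0.20 ± 0.074 with p16 (edgeR adjusted p = 0.111; 0.00306 with the block) and -0.57 ± 0.075 in p21 against p16 (edgeR adjusted p = 0.000399). Fibrillin 1 (Fbn1), the main fibrillin, was at 1317 ± 27.8 CPM with p21, 1355 ± 52.5 with p16 and 1412 ± 48.7 with the empty vector. It fell by 0.10 ± 0.037 on the log2 scale with p21 (edgeR adjusted p = 0.0489). This call was lost in edgeR with RLE size factors in place of TMM scaling (0.0537) and in a fit of the p21 and empty vector groups only (0.0584). It was also lost without empty vector replicate 1 or 3, p21 replicate 1 or 2, or p16 replicate 2 or 3 (at most 0.154). Of the exons of Fbn1, 20.1% lie opposite the predicted gene Gm9913.

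Elastin itself (Eln) was at 39.5 ± 8.63 CPM with p21, 37.3 ± 7.39 with p16 and 48.5 ± 5.38 with the empty vector, and was not called with p21 or p16 in the fit of all libraries without the block (edgeR adjusted p = 0.155 and 0.148). Replicates 1 and 2 alone called it lower with both (0.013 and 0.0186), as did leaving out p21 replicate 3 for p21 (0.0414). Within each replicate number it was lower with p21 and with p16 than with the empty vector, and with the block it passed in both (-0.31 and -0.39, edgeR adjusted p = 9.27e-05 and 2.83e-05). Fibulin 3 (Efemp1) went the other way under the block, at 0.26 with p21 and 0.14 with p16 (3.73e-05 and 0.0314). The fibulin Fbln5, the microfibril-associated Mfap2 and Mfap4 and the elastin-microfibril proteins Emilin1 and Emilin2 were also not called, with log2 fold changes with p21 of -0.16 to 0.25. With the block Mfap4 passed upward with p21, and Mfap2, Emilin1 and Emilin2 downward, and Fbln5 passed in neither fit.

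The 8 interstitial proteoglycans also held rises and falls. With p21, 3 rose and 2 fell (median log2 fold change 0.15), with p16, none rose and 1 fell (median -0.01), and in p21 against p16, 1 was higher and 1 lower (median -0.06). These are 62.5%, 12.5% and 25% of the class, against 39.9%, 11.4% and 13.1% of all genes tested. Without p21 replicate 3 the p21 median was 0.061, and the sign of the other medians depended on the library left out. With the block, 3 rose and 2 fell with p16, and 2 were higher and 3 lower in p21 against p16. Versican (Vcan; chr13:89655312-89742509, minus strand), the large hyaluronan-binding proteoglycan of provisional matrix, had 226, 222 and 261 CPM in p21 libraries and 318, 304 and 350 CPM in p16 libraries, against 393, 350 and 424 CPM in empty vector libraries. All p21 libraries lay below all others, and the highest p16 library reached the lowest empty vector library. The log2 fold change was -0.72 ± 0.076 with p21 and -0.26 ± 0.076 with p16 (edgeR adjusted p = 1.46e-05 and 0.0423), and -0.45 ± 0.076 in p21 against p16 (edgeR adjusted p = 0.00209). The p16 call was lost without empty vector replicate 1 or 3, p21 replicate 1 or p16 replicate 1 or 2 (at most 0.167). Asporin (Aspn), a small leucine-rich proteoglycan that binds collagen and TGF-β, had 34.9, 31.3 and 42.3 CPM in p21 libraries and 42.5, 41.1 and 46.8 CPM in p16 libraries, against 47.5, 47.0 and 53.3 CPM in empty vector libraries. Both sets lay below the empty vector and overlapped each other. On the log2 scale the change was -0.44 ± 0.093 with p21 (edgeR adjusted p = 0.00235), -0.18 ± 0.092 with p16 (edgeR adjusted p = 0.243; 0.00922 with the block) and -0.26 ± 0.093 in p21 against p16 (edgeR adjusted p = 0.0839; 0.000256 with the block).

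Prelp, which anchors basement membranes to connective tissue, had 3.94, 4.33 and 5.53 CPM in p21 libraries and 2.53, 2.72 and 3.73 CPM in p16 libraries, against 2.73, 2.95 and 3.55 CPM in empty vector libraries. Each p21 library was above all others, at a low level. It rose by 0.58 ± 0.18 with p21 (edgeR adjusted p = 0.0195) and exceeded p16 by 0.62 ± 0.18 (edgeR adjusted p = 0.0367). The first call was lost without empty vector replicate 1 or 2 or p21 replicate 3 (at most 0.0839). The second was lost without empty vector replicate 2, p21 replicate 2 or 3 or p16 replicate 1 or 2 (at most 0.131), and in a fit of the p21 and p16 groups only (0.0543). Osteoglycin (Ogn), another small leucine-rich proteoglycan, had 110, 105 and 98.2 CPM in p21 libraries and 96.1, 107 and 82.4 CPM in p16 libraries, against 86.0, 95.8 and 78.7 CPM in empty vector libraries. The p21 libraries lay above the empty vector, and p16 overlapped both. Ogn rose by 0.27 ± 0.089 with p21 (edgeR adjusted p = 0.0303), which was lost without empty vector replicate 1 or 3 or p21 replicate 1 or 2 (at most 0.11) and with library totals only (0.0681). With p16 it passed only under the block (0.13, edgeR adjusted p = 0.0361). Fibromodulin (Fmod), which regulates collagen fibril assembly, had 50.8, 45.9 and 57.7 CPM in p21 libraries and 54.1, 50.3 and 67.6 CPM in p16 libraries, against 42.3, 41.8 and 51.2 CPM in empty vector libraries. Replicate 3 was the highest of each group and the groups overlapped. In the fit of all libraries without the block Fmod was not called (log2 fold change 0.19 ± 0.11 with p21 and 0.35 ± 0.11 with p16, edgeR adjusted p = 0.199 and 0.0697). With the block the adjusted p was 0.000942 with p21 and 4.51e-06 with p16. Replicates 1 and 2 alone also called it higher with p21 (0.0142) and p16 (0.00365), as did, for p16, the fit with no filter (0.0325) and that without empty vector replicate 3 (0.0358). Biglycan (Bgn), a collagen-binding proteoglycan that held most reads of the class, averaged 4397 ± 5.47 CPM with p21, 4320 ± 121 with p16 and 4072 ± 168 with the empty vector. It rose by 0.11 ± 0.037 with p21 (edgeR adjusted p = 0.0309), a call lost with library totals only (0.197), in a fit of the p21 and empty vector groups only (0.0517) and without empty vector replicate 1 or 2 or p21 replicate 1 or 3 (at most 0.0976). Decorin (Dcn) and lumican (Lum), the small proteoglycans that space collagen fibrils, passed no comparison, with log2 fold changes with p21 of 0.26 ± 0.21 and -0.44 ± 0.34.

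**Figure D3:**
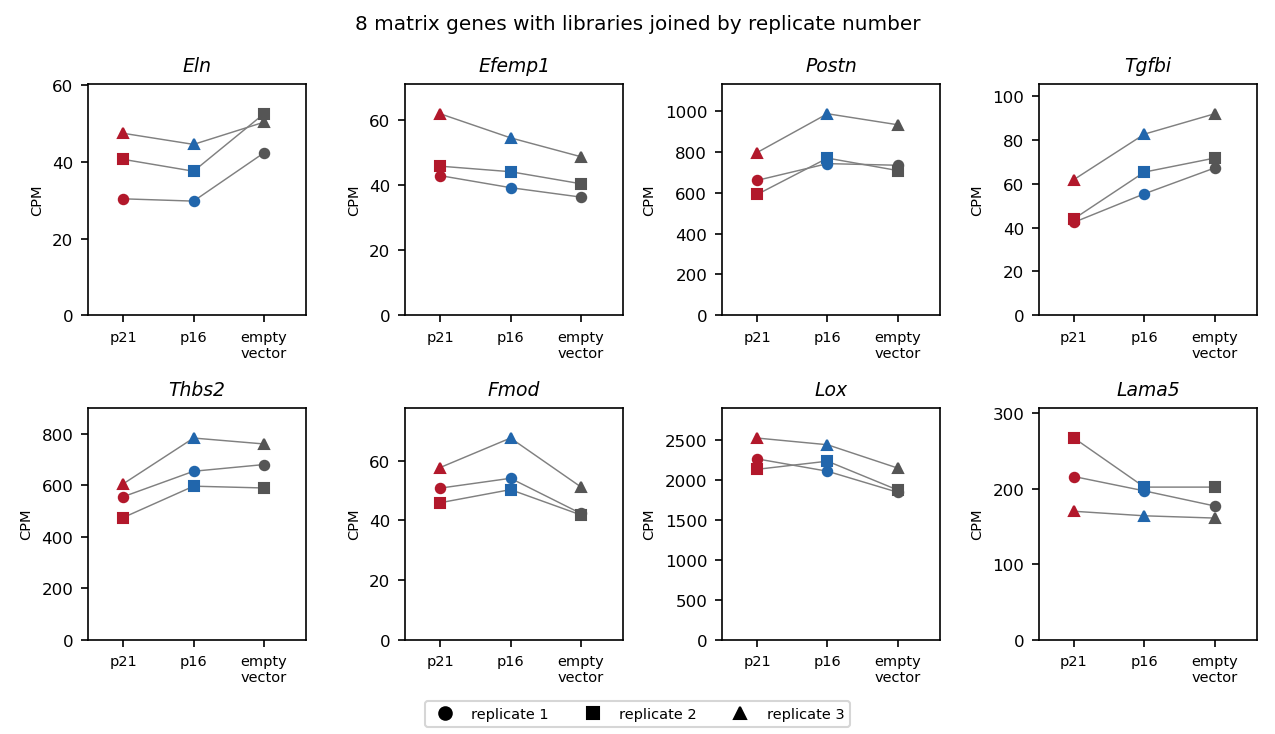
CPM of 8 matrix genes in each library, with libraries of the same replicate number joined across p21, p16 and the empty vector. Within each replicate number Tgfbi, Thbs2 and Eln are lower with p21 than with the empty vector, and Efemp1, Lox, Fmod and Lama5 higher, and replicate 3 is the highest library of each group for Efemp1, Postn, Tgfbi, Thbs2, Fmod and Lox.

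Replicate 3 was the highest library in all 3 groups for 16 of the 46 genes and the lowest in all 3 for 7. The plot joined by replicate number shows this for Tgfbi and Postn. With the block, 11 genes were called with p21 that were not called without it, 12 with p16 and 20 in p21 against p16, and no call made without the block was lost. Besides those given with each gene, the block added Bgn with p16 (0.09, edgeR adjusted p = 0.0191). In p21 against p16 it added Fbln2, Efemp1, Efemp2, Loxl3, Ogn, Lama2 and Lama5 as higher and Mfap2, Emilin2 and Fmod as lower.

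The sum over the 46 genes was 66512 ± 523 CPM in p21 libraries and 63064 ± 1158 CPM in p16 libraries, against 54123 ± 1539 CPM in empty vector libraries (SD, n = 3 each). The ratio of these TMM-scaled sums to the empty vector was 1.23 for p21 and 1.17 for p16. By library totals without TMM scaling, the 46 genes held 6.55%, 6.29% and 5.51% of the reads. Thbs1 and Fn1 together held 48.7% of the sum with p21, 48.1% with p16 and 45.6% with the empty vector, and 62.0% of the gain with p21 and 62.8% of that with p16. Fn1 gave 41.0% of the gain with p21 and 31.2% of that with p16, and Thbs1 21% and 31.6%. The ratio to the empty vector was 1.21 for p21 and 1.11 for p16 in the laminin class, 1.2 and 1.17 among the crosslinking enzymes and 1.19 and 1.18 in the matricellular class. The elastic fibre class rose in sum to 7317 CPM with p21 and 7064 CPM with p16, against 6535 CPM with the empty vector. Without Fbln2 the elastic fibre sum was 2786 CPM with p21 and 2844 CPM with p16, against 2940 CPM with the empty vector. The proteoglycan sum was 4834 CPM with p21 and 4846 CPM with p16, against 4648 CPM with the empty vector. Without Bgn it was 437 CPM with p21 and 526 CPM with p16, against 577 CPM with the empty vector. Without its most abundant gene, the mean sum of these last 2 classes was thus lower with p21 and p16 than with the empty vector. The spread of these sums was not computed. Vcan alone lay 153 CPM below the empty vector with p21 and 65 CPM below it with p16. Both falls exceed that of the proteoglycan sum without Bgn. The laminin, crosslinking and matricellular classes stayed above the empty vector without their most abundant gene. The ratios for p21 and p16 were 1.23 and 1.13 for laminins without Hspg2 and 1.21 and 1.18 for crosslinking enzymes without Lox. Matricellular genes without Thbs1 summed to 11710 CPM with p21 and 11114 CPM with p16, against 9693 CPM with the empty vector.

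**Figure D4:**
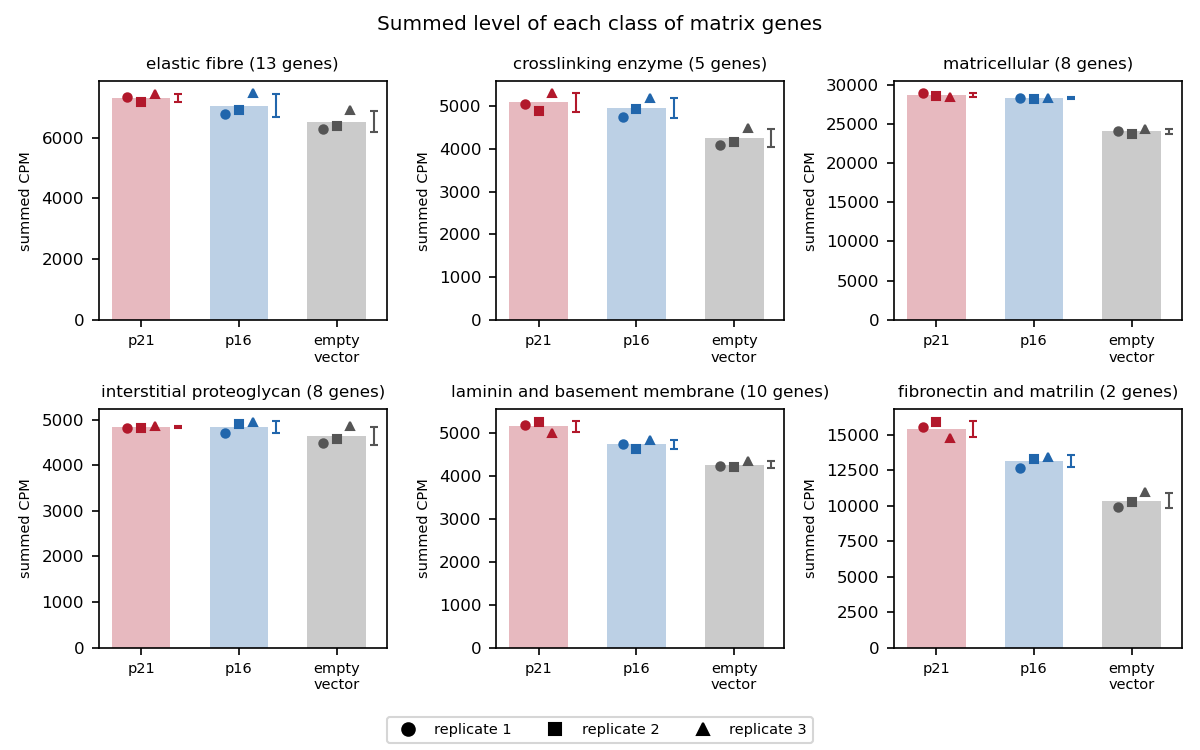
Summed CPM of each class by group (p21, p16, empty vector); bars start at 0 and give the mean, error bars the SD (n = 3), and symbols the libraries by replicate number. The fibronectin class reaches 15439 CPM with p21 and 13160 CPM with p16, against 10374 CPM with the empty vector, and the proteoglycan class differs least.

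Levels of different genes were compared per kb of exon. With p21 the order began with Thbs1 at 2794 ± 32.7 CPM per kb, Sparc at 1425 ± 41.9, Fn1 at 1318 ± 49.9, Bgn at 721 ± 0.896 and Fbln2 at 711 ± 14.6 (SD, n = 3). With the empty vector it was Thbs1 at 2364 ± 24.5, Sparc at 1096 ± 8.82, Fn1 at 884 ± 44.8, Bgn at 668 ± 27.6 and Fbln2 at 564 ± 35.8. Bgn and Fbln2 differed by less than the larger of their SDs with p21 and with p16. The order of the first 7 genes, which ends with Tnc and Lox, was the same in all 3 groups. With the mean length of a gene's transcripts in place of its exons the levels were higher, as for Bgn at 2785 CPM per kb and Fn1 at 2529 with the empty vector, where these 2 genes changed places. The first 7 genes were the same, as were 8 of the first 10 with the empty vector. At the other end were Prelp at 1.27 CPM per kb with p21, 0.828 with p16 and 0.85 with the empty vector, Dcn at 0.541, 0.436 and 0.455, and Lum at 0.221, 0.305 and 0.304. Elastin was at 4.88 CPM per kb with p21, 4.61 with p16 and 5.99 with the empty vector, far under Fbn1 at 109, 112 and 116. Mfap5 held rank 32 of the 46 with p21, 33 with p16 and 37 with the empty vector.

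**Figure D5:**
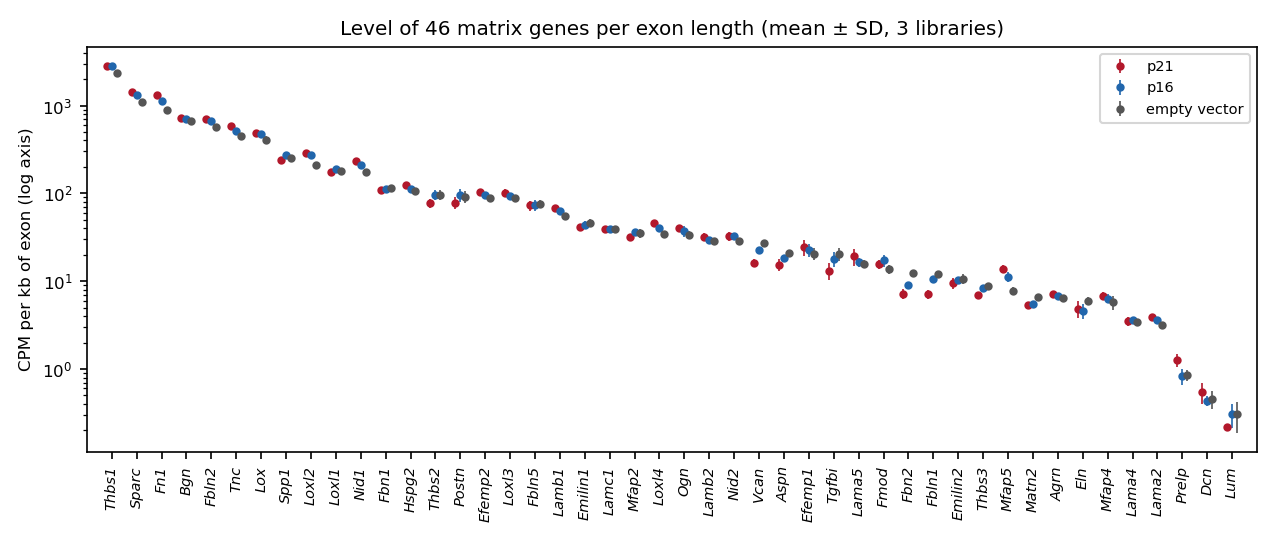
CPM per kb of exon (log axis, mean ± SD of 3 libraries) of the 46 genes, ordered by their level with the empty vector, for p21, p16 and the empty vector. Levels run from 2794 (Thbs1, p21) to 0.221 (Lum, p21), and the shifts between groups are small beside the range between genes.

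Genes that act with these proteins were counted from 4 lists, whose shares called are to be read against 39.9%, 11.4% and 13.1% of all genes tested with p21, with p16 and in p21 against p16. Of 16 helpers of matrix maturation and crosslinking, 8 rose and none fell with p21, 4 rose and none fell with p16, and 3 were higher and 1 lower in p21 against p16, or 50%, 25% and 25% of the list. With the block, 10 rose with p16. Transglutaminase 2 (Tgm2), which crosslinks fibronectin and other proteins, had 185, 170 and 170 CPM in p21 libraries and 120, 126 and 121 CPM in p16 libraries, against 73.2, 72.0 and 74.6 CPM in empty vector libraries. The 3 groups were far apart. It changed on the log2 scale by 1.26 ± 0.042 with p21 and 0.74 ± 0.042 with p16 (edgeR adjusted p = 5.13e-09 and 1.34e-06), and 0.51 ± 0.041 in p21 against p16 (edgeR adjusted p = 9.17e-06). Bmp1, the protease that activates lysyl oxidase precursors and processes procollagen, rose by 0.37 ± 0.052 with p21 and 0.22 ± 0.051 with p16 (edgeR adjusted p = 0.000117 and 0.0193). The collagen chaperone Fkbp10 and the microfibril-associated Adamtsl4 rose with p21 by 0.31 ± 0.033 and 0.47 ± 0.060 (edgeR adjusted p = 1.47e-05 and 7.11e-05).

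Of 42 tested genes for other matrix glycoproteins and proteoglycans, 9 rose and 5 fell with p21, 5 rose and 2 fell with p16, and 2 were higher and 1 lower in p21 against p16. These are 33.3%, 16.7% and 7.14% of the list, so that with p21 and in p21 against p16 its share lay below that of all genes. With the block these were 10 and 6 with p16, and 3 and 8 in p21 against p16. Ecm1 had 396, 378 and 388 CPM in p21 libraries and 263, 268 and 280 CPM in p16 libraries, against 197, 209 and 209 CPM in empty vector libraries. Its groups were separate, with log2 fold changes of 0.92 ± 0.036 for p21 and 0.40 ± 0.036 for p16 (edgeR adjusted p = 1.34e-08 and 0.000106). Of the glypicans, cell surface heparan sulfate proteoglycans, Gpc4 rose by 0.70 ± 0.045 with p21 and 0.35 ± 0.044 with p16 (edgeR adjusted p = 2.85e-07 and 0.000693). Gpc1 fell by 0.29 ± 0.038 and 0.18 ± 0.038 on the log2 scale (edgeR adjusted p = 7.04e-05 and 0.00973). The CCN protein gene Ctgf rose by 0.20 ± 0.032 with p21 and 0.19 ± 0.032 with p16 (edgeR adjusted p = 0.000408 and 0.00347).

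Of 36 genes that build hyaluronan and glycosaminoglycan chains, 11 rose and 4 fell with p21, 5 rose and 1 fell with p16, and 4 were higher and 1 lower in p21 against p16. At 41.7%, 16.7% and 13.9% of the list, the shares with p21 and in p21 against p16 were near those of all genes. With the block, 10 rose and 3 fell with p16, and 7 were higher and 5 lower in p21 against p16. The chondroitin sulfotransferases Chst12 and Chst11 rose with p21 by 0.69 ± 0.046 and 0.62 ± 0.069, the polymerising factor Chpf2 by 0.53 ± 0.041, and B4galt7, which builds the linker to the core protein, by 0.50 ± 0.052 (edgeR adjusted p = 3.87e-07, 2.11e-05, 1.22e-06 and 1.31e-05). All 4 also rose with p16, by 0.22 to 0.44. Of 7 tested proteoglycan-cleaving ADAMTS proteases, 1 rose and 1 fell with p21, 3 rose and none fell with p16, and 1 was higher and 1 lower in p21 against p16. These are 28.6%, 42.9% and 28.6% of the list, the first of them below the share of all genes. With the block, 1 was higher and 3 were lower in the last of these. Adamts4 rose by 0.49 ± 0.061 with p21 and 0.42 ± 0.061 with p16 (edgeR adjusted p = 5.54e-05 and 0.00139). Adamts5 and Adamts1 rose with p16 by 0.36 ± 0.081 and 0.20 ± 0.049 (edgeR adjusted p = 0.0147 and 0.0214). Adamts16, below 1 CPM in every library, fell with p21 (-1.32 ± 0.35, edgeR adjusted p = 0.00929).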

How the data were processed

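The deposited table holds raw read counts per gene symbol for 9 RNA-seq libraries of total RNA, with a library kit that keeps no strand. The build is mm10 (GRCm38) and the tools named are TopHat2 2.0.14, Bowtie2 2.2.6 and, from Subread, featureCounts 1.4.6, per the submitters' processing notes. The annotation and strand setting are not given in the sources used here, so reads of overlapping genes cannot be told apart. Of the members, Fbn1, Spp1, Loxl3, Prelp, Nid2, Thbs3 and Loxl2 share 5.57 to 20.1% of their exon bases with another gene.

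The main test used edgeR 4.0.16 (R 4.3.3): filterByExpr by group (minimum count 10, minimum total 15; 14223 genes kept), TMM scaling, 1 quasi-likelihood fit of all 9 libraries by group with 6 residual degrees of freedom, two-sided F tests and Benjamini-Hochberg adjustment over all genes tested at 0.05. Standard errors are the log2 fold change over the square root of F. CPM use TMM-scaled totals, and exon lengths and coordinates come from GENCODE M21, which matched 22720 of 24062 symbols. The common dispersion of 0.00533 is a coefficient of variation of 7.3% between replicates. Libraries of a group differed by 5.13 to 16.2 times counting error (chi-squared per degree of freedom), so none was the same library deposited again, while technical repeats of one culture cannot be told apart from separate ones.

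On simulated data for p21 against the empty vector (14223 genes) a known log2 change of 0.3 was called for 44% of the genes that carried it and one of 0.6 for 88%, a fall of 0.6 for 74% and a rise of 1 for 82%, and 5.88% of 153 calls were unchanged genes.

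The members and lists were chosen with earlier results of these data known. All members are named. Values in every library are given for the delivered genes, Fn1 and, per class, the genes with the smallest p in p21 against the empty vector (up to 4) and in the other comparisons (up to 2 each), and up to 4 genes stand for each further list. Names were matched through older symbols where needed.

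The labels number the replicates without saying what the numbers mean. Deviations from the group means correlated at r = 0.126 to 0.361 between libraries of the same number and at -0.246 to 0.106 between others. The numbers were therefore taken to pair the samples. This was clearest for replicate 3 (0.332 to 0.361), while p21 replicate 2 gave 0.126 with p16 replicate 2 and 0.106 with p16 replicate 1. The main counts come from the fit without the block, and blocked values are given where they change a call. The settings varied were the scaling (RLE size factors as in DESeq2, or library totals only), no filter, DESeq2 1.42.0, limma-voom (limma 3.58.1), only the 2 groups compared, the replicate block, replicates 1 and 2 alone and each library left out in turn. Summaries and figures were made with pandas 2.3.3 and matplotlib 3.10.9 under Python 3.11.15.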

Additional observations from a re-analysis of the deposited data

How the results depend on the processing

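No gene of the 46 that was called changed sign under the settings tried. Among class medians, those of elastic fibre (-0.037 to 0.048 over the libraries left out in turn) and proteoglycans (-0.115 to 0.092) lay on both sides of 0 with p16, as did the same classes in p21 against p16 (-0.058 to 0.097 and -0.109 to 0.009). Counts below are of called genes of the 46, or of the class or list named, where they moved by over 1.5 times. With library totals only, p21 gave a median log2 fold change of 0.09 for fibronectin and matrilin and 3 called proteoglycans, p16 gave 1235 lower genes over the whole table and 1 crosslinking enzyme, and p21 against p16 gave 5 other glycoproteins and proteoglycans. With no filter, p16 gave 2 proteoglycans, and p21 against p16 gave 7 lower of the 46, 5 matricellular genes, 5 other glycoproteins and 0 ADAMTS proteases. DESeq2 gave 10 glycosaminoglycan genes with p16, and in p21 against p16 it gave 9 higher of the 46, 1 crosslinking enzyme and 5 other glycoproteins. In p21 against p16, limma-voom gave 1 ADAMTS protease. Fits of only the groups compared gave 7 helpers with p16, and 1 proteoglycan and 1 ADAMTS protease in p21 against p16.

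The replicate block gave, with p21, 14 lower of the 46, 12 elastic fibre and 8 laminin genes. With p16 it gave 1602 higher and 1442 lower genes over the whole table, 20 higher and 7 lower of the 46, 7 elastic fibre genes, 4 crosslinking enzymes, 5 proteoglycans, 5 laminin genes, 16 other glycoproteins, 10 helpers and 13 glycosaminoglycan genes. In p21 against p16 it gave 1566 higher and 1648 lower over the whole table, 16 higher and 13 lower of the 46, 8 elastic fibre genes, 3 crosslinking enzymes, 7 matricellular genes, 5 proteoglycans, 5 laminin genes, 11 other glycoproteins, 12 glycosaminoglycan genes and 4 ADAMTS proteases. The block ended no call among the 46. Replicates 1 and 2 alone gave 8 laminin genes with p21, 5 lower of the 46 and 3 proteoglycans with p16, and in p21 against p16 12 higher and 8 lower of the 46, 2 crosslinking enzymes, 6 matricellular and 5 laminin genes.

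Leaving out each library in turn gave these ranges. With p21 they were 2 to 5 proteoglycans, 1 to 4 ADAMTS proteases and class medians of 0.112 to 0.258 for laminins, 0.061 to 0.186 for proteoglycans, -0.117 to -0.026 for elastic fibre, -0.191 to -0.078 for matricellular genes and 0.237 to 0.311 for crosslinking enzymes. With p16 they were 404 to 955 higher and 355 to 939 lower genes over the whole table, 7 to 13 higher of the 46, 2 to 5 elastic fibre genes, 1 to 3 crosslinking enzymes with a median of 0.151 to 0.214, 0 to 1 proteoglycan, 2 to 6 helpers, 4 to 8 other glycoproteins and 1 to 3 ADAMTS proteases. In p21 against p16 they were 497 to 876 higher and 576 to 944 lower over the whole table, 1 to 6 higher of the 46, 1 to 2 elastic fibre genes, 0 to 1 crosslinking enzyme, 1 to 3 matricellular genes, 1 to 2 proteoglycans, 0 to 3 laminin genes, 2 to 4 helpers, 2 to 5 glycosaminoglycan genes and 0 to 3 ADAMTS proteases. The causes were not tested. With 3 libraries a group, a gene that did not pass is not shown to be unchanged. In simulation a log2 change of 0.3 was often missed, but with far fewer changed genes than were called in the data. Dcn, Lum and Prelp rest on few reads.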
